A study of Homo sapiens with 3 samples.

Results

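The mitochondrial ribosomal proteins are encoded in the nucleus and form the protein part of the ribosome inside mitochondria. The genes described here were all protein-coding genes in the deposited table whose symbol starts with MRPL or MRPS and a digit, with no use of their expression values. They numbered 78 of 58735 genes, and of 19951 protein-coding genes. The RNA came from HGC-27, a gastric cancer line of human origin in long use, and was sequenced in 3 libraries. In shUSP16-1 and shUSP16-2 the cells carried a short hairpin RNA against USP16, and in the single library shControl they are labelled as controls of genotype WT. USP16 is a deubiquitinase known for removing ubiquitin from histone H2A. All 3 libraries share the cell line and medium, and the labels' protocols list dexamethasone, isobutylmethylxanthine and insulin for all of them, though it is unclear whether these cells received them.

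The labels do not say whether shUSP16-1 and shUSP16-2 carry different hairpins or are repeats, or whether each is its own culture. The p-values below therefore rest on how far these 2 libraries lie apart, in the gene itself and over all genes tested, and that distance may be purely technical. USP16 was at 4.29 FPKM in shUSP16-1, 5.98 FPKM in shUSP16-2 and 6.28 FPKM in shControl (fragments per kilobase of gene length, scaled to library size), so its mRNA stood barely below the control in shUSP16-2, and every direction below is that of libraries labelled shUSP16. The ratio of USP16 reads to shControl was 0.683 (0.621 to 0.749) in shUSP16-1 and 0.952 (0.875 to 1.04) in shUSP16-2 (limma adjusted p = 0.564 over all genes). Sums of reads ran from 29530581 to 31187845 per library. The epithelial genes KRT8, KRT18, KRT19, EPCAM and CDH1 were at 0 to 0.598 FPKM in every library, MUC5AC and TFF1, of stomach mucus cells, had 0 reads, and MUC1 was at 1.74 to 2.62 FPKM, while COL1A1, a collagen gene of mesenchymal cells, was at 52.2 to 78.4 FPKM. PTPRC, CD3E and PECAM1, which mark blood and endothelial cells, were at 0 reads in all 3 libraries, and ALB, of liver cells, was at 0 to 0.0910 FPKM. In bulk RNA, fewer cells of a type and less RNA per cell cannot be told apart.

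Mitochondrial ribosomes translate the few membrane proteins of the respiratory chain that the mitochondrial genome encodes. Their large subunit joins amino acids and their small subunit decodes the messenger, and each is built on an RNA made inside mitochondria, while every protein is imported from the cytosol. Some of these proteins have counterparts in bacterial ribosomes, and others are found only in mitochondria.

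By the mammalian structure, 51 of the 78 genes encode large subunit proteins and 26 encode small subunit proteins. MRPS30 and MRPS18A carry an S in their symbol but belong to the large subunit. MRPS36 was counted in neither, since its product is now known as a subunit of the 2-oxoglutarate dehydrogenase complex. By the unified names of ribosomal proteins, 46 of the other 77 have a bacterial counterpart, and 31 are specific to mitochondria. These classes follow the names: MRPS18A and MRPS18B fall among the 31, while MRPS18C, of the same symbol series, falls among the 46.

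The promoters of 5 of these genes are shown because they belong to members at the ends of the expression pattern: MRPL1 and MRPL20, with large differences from shControl; MRPL51 and MRPS34, among the most abundant; and MRPL55, the lowest relative to shControl of the 75 members tested. Each runs from 250 bases before to 50 bases after the RefSeq start on GRCh38.p14, 5′ to 3′ on the gene's strand. Capitals mark the letters CCGGAAG, a form of the site bound by ETS family factors, and AAGATGGC, a form of the YY1 site, on either strand. The MRPL1 window is chr4:77862580-77862879 (plus strand), MRPL20 chr1:1407244-1407543 (minus), MRPL51 chr12:6493213-6493512 (minus), MRPS34 chr16:1773085-1773384 (minus) and MRPL55 chr1:228109250-228109549 (minus).
MRPL1: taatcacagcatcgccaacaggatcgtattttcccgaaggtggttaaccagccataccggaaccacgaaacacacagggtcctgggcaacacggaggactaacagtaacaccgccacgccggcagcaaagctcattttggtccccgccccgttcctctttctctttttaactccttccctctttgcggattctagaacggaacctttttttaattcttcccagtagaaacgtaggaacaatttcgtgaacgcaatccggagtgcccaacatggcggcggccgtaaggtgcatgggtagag
MRPL20: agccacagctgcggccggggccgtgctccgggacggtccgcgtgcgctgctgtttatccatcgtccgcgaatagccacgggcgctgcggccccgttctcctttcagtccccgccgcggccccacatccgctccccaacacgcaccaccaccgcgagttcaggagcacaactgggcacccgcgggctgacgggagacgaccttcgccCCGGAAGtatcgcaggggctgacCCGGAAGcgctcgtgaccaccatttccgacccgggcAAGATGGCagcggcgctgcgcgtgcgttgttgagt
MRPL51: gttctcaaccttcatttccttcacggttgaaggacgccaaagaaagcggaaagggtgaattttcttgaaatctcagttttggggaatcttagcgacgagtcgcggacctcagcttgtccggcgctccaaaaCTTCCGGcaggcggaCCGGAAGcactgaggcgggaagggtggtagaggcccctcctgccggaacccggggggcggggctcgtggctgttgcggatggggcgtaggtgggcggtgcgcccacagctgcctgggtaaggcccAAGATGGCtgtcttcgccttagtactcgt
MRPS34: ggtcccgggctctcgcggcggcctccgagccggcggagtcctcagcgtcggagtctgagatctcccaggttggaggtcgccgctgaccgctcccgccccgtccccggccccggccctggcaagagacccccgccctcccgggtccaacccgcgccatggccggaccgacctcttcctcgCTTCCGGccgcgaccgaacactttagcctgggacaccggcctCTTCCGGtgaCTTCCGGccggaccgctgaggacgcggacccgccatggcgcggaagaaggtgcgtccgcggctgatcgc
MRPL55: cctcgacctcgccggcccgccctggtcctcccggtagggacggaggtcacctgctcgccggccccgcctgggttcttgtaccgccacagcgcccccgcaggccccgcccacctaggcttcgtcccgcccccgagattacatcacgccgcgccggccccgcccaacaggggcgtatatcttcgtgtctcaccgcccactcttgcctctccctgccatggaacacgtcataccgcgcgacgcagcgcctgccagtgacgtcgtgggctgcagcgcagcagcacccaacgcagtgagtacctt

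MRPL20 held ETS letters starting 44 and 21 bases before the start and YY1 letters starting at base 16 of the transcript. MRPL51 held ETS letters on both strands and YY1 letters starting at base 22. MRPS34 held 3 ETS matches, all on the strand opposite to the gene, and the MRPL1 and MRPL55 windows held neither set of exact letters. Near forms, such as ccggaac and aacatggc in the MRPL1 window, were not counted as matches here or below. A match is a description of letters, not of a bound site.

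RefSeq promoters were found for 69 of the 78 genes. ETS letters were in 29 of them (42.0%), where 20.4% of 8860 promoters of tested protein-coding genes and 10.7% of 27305 promoters in all held them. YY1 letters were in 20 (28.99%), against 5.87% and 3.03%. The palindromic consensus of NRF1, a regulator of nuclear genes for mitochondria, was in 8 (11.6%), against 12.6% and 6.28%. The E-box CACGTG, bound by MYC and MAX among others, was in 6 (8.70%), against 10.3% and 7.43%. SP letters (GGGCGG) were in 60.9%, against 72.0% and 44.6%, CCAAT in 28.99%, against 37.2% and 35.7%, and TATAAA in 2.90%, against 4.86% and 11.95%. All motifs were searched on both strands. The end of the ETS letters equals the start of the YY1 letters, so a match of each can overlap, which was so in 0 of the 8 member promoters that held both. Of the 20 members with YY1 letters, 16 had them within the 100 bases nearest the transcript end of the window, which is 80.0% beside 73.7% of the tested protein-coding genes with YY1 letters. Of the 29 with ETS letters 24 did, or 82.8% beside 62.1%.

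**Figure D1:**
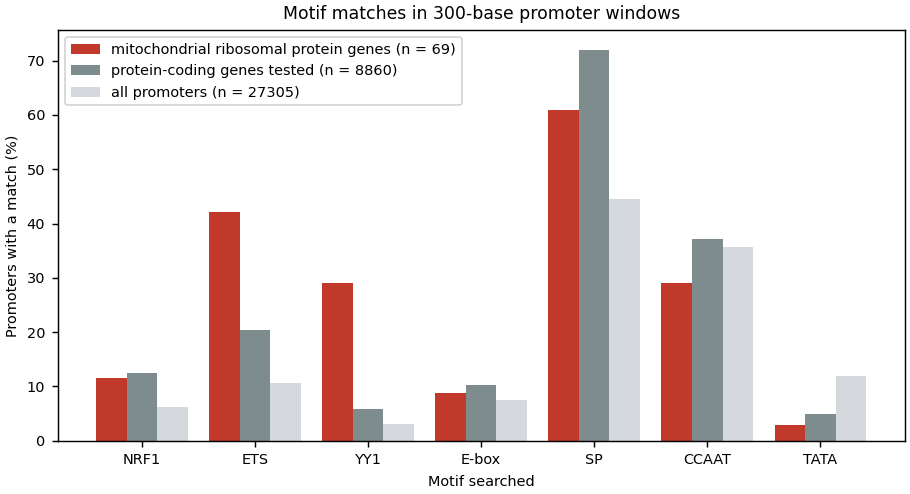
Share of promoters (%, vertical axis) with a match to each of 7 motifs, for 69 mitochondrial ribosomal protein genes, 8860 tested protein-coding genes and all 27305 RefSeq promoters. The ETS and YY1 bars of the mitochondrial ribosomal protein genes stand at 42.0% and 28.99%, above the 20.4% and 5.87% of tested protein-coding genes.

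Most members were expressed at similar, moderate levels. The test took in the 75 members whose mean reached 1 FPKM. Their level ran from 1.64 to 72.2 FPKM with a median of 20.2 in shUSP16-1, from 1.56 to 73.3 with a median of 21.8 in shUSP16-2, and from 1.15 to 56.9 with a median of 18.02 in shControl. At least 10 FPKM was reached by 62, 64 and 61 of them in shUSP16-1, shUSP16-2 and shControl. All 78 genes together held 0.445% of reads in shUSP16-1, 0.453% in shUSP16-2 and 0.413% in shControl. Tested members rested on 68 to 8308 reads per library.

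In the large subunit the highest mean levels belonged to MRPL14, MRPL51, MRPL13, MRPL37 and MRPL34. MRPL14, which lies at the interface of the subunits, had 67.9 FPKM in shUSP16-1, 64.1 in shUSP16-2 and 56.9 in shControl. MRPL51, specific to mitochondria, had 64.5, 59.7 and 51.8 FPKM in the same order. MRPL37, also specific to mitochondria, had 45.9, 48.5 and 42.0 FPKM, and MRPL34, a short protein with a bacterial counterpart, 45.9, 42.9 and 41.7 FPKM. For each of these the shControl library was the lowest of the 3. The same held for 44.9% of all genes tested, and for 58.2% of those with a mean of at least 5 FPKM. MRPL34 in shUSP16-2 lay nearer to shControl than to shUSP16-1. With libraries scaled to equal sums of reads, MRPL34 was at -0.016 on the log2 scale relative to shControl.

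In the small subunit the highest mean levels belonged to MRPS34, MRPS26, MRPS21, MRPS15 and MRPS18B. MRPS34, needed for a stable small subunit, had 72.2 FPKM in shUSP16-1, 73.3 in shUSP16-2 and 53.0 in shControl. MRPS26, specific to mitochondria, had 46.4, 47.6 and 43.8 FPKM in the same order, and MRPS21, with a bacterial counterpart, had 43.2, 48.1 and 44.6 FPKM. MRPS15 had 40.9 and 41.1 FPKM in the libraries labelled shUSP16 and 33.1 in shControl, and MRPS18B 40.1 and 42.2 against 32.3 FPKM. The groups did not overlap for MRPS34, MRPS26, MRPS15 and MRPS18B and overlapped for MRPS21, where all genes tested were above the single control in both libraries for 44.9% and below it in both for 32.4%. With equal sums of reads MRPS26 was at -0.0055 and MRPS21 at -0.074 on the log2 scale.

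**Figure D2:**
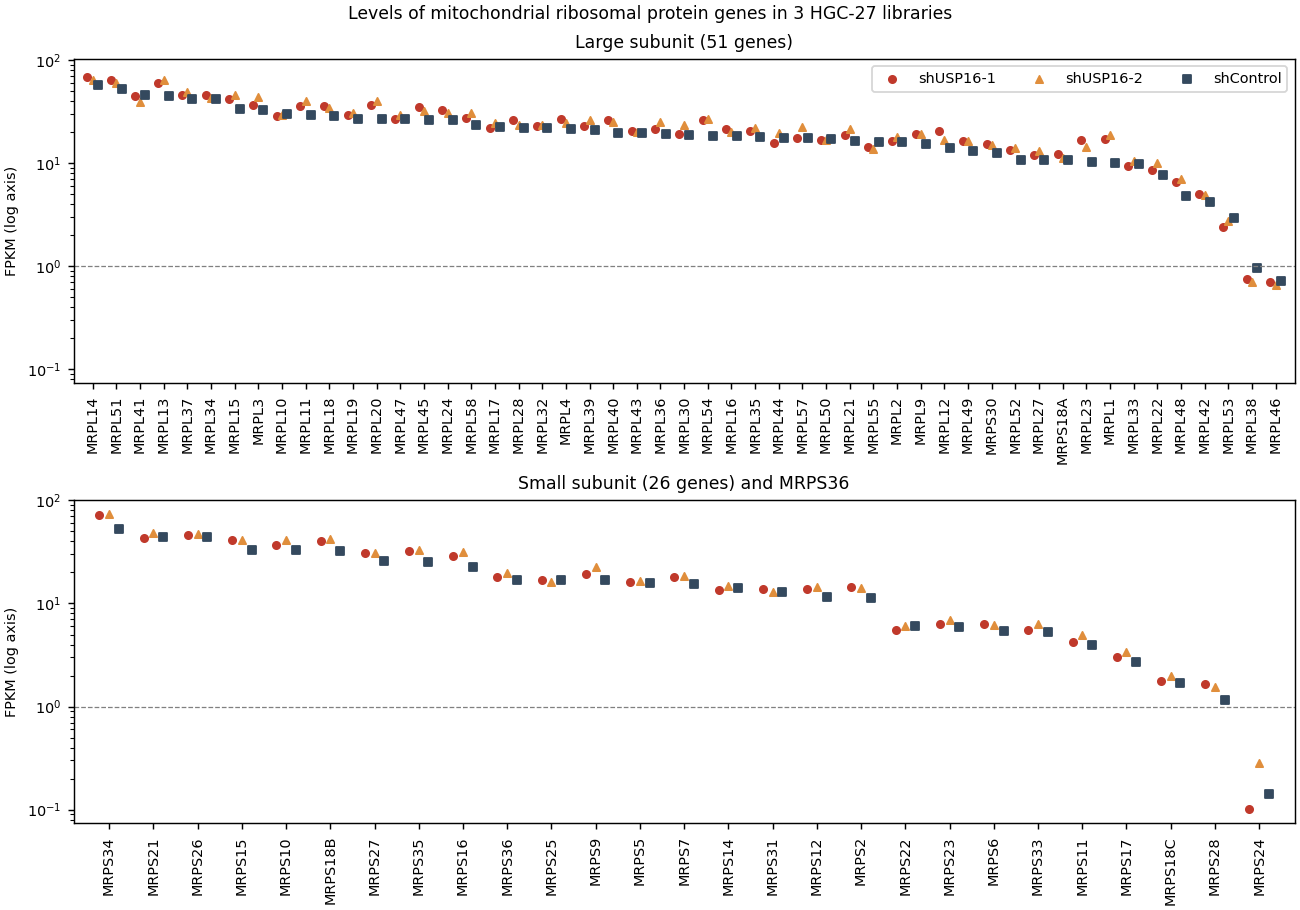
FPKM (log axis) of all 78 genes in shUSP16-1, shUSP16-2 and shControl, 1 point per library, in order of the shControl level; the dashed line is the 1 FPKM minimum for the mean. Most genes lie between 10 and 73.3 FPKM, and MRPL38, MRPL46 and MRPS24 lie below 1 FPKM in every library.

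The lowest members were genes that share their coding exons with another annotated gene on the same strand. Over 50% of the coding bases lay within exons of such a gene for 8 members in GENCODE release 29, and 6 of the 7 genes with the lowest mean level were among them. Their mean levels ran from 0.176 to 20.4 FPKM with a median of 2.08, and those of the other 70 members from 1.81 to 66.1 FPKM with a median of 19.997. The sources used here do not give the counting of reads in shared exons, so a low value of these genes cannot be told apart from reads not assigned to them.

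MRPS24, the counterpart of a bacterial protein of the messenger channel, shared 92.2% of its coding bases with the readthrough gene URGCP-MRPS24. It had 8 reads in shUSP16-1, 23 in shUSP16-2 and 12 in shControl, or 0.102, 0.284 and 0.141 FPKM, and URGCP-MRPS24 had 0 reads in all 3 libraries. MRPL38 shared 94.1% of its coding bases and had 0.749, 0.705 and 0.956 FPKM. MRPL46, of which 64.0% was shared, had 0.708 and 0.657 FPKM in the libraries labelled shUSP16 and 0.716 in shControl. These 3 genes had a mean below 1 FPKM and were not tested. The genes that shared coding bases with MRPL38 and MRPL46 had 0 to 2 reads per library.

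MRPS28 shared 53.0% of its coding bases and had 1.64 and 1.56 FPKM in the libraries labelled shUSP16 and 1.15 in shControl, from 68 to 89 reads. MRPL53 and MRPS17 shared all of them. MRPL53 shared them with CCDC142, a gene with 547 to 642 reads per library, and had 97 to 129 reads itself. MRPS17 had 3.05, 3.41 and 2.73 FPKM in shUSP16-1, shUSP16-2 and shControl. A shared sequence did not always go with a low value: MRPL12 shared 96.0% and had 20.2, 16.7 and 14.0 FPKM, and MRPL30 shared 95.3% and had 19.2, 23.4 and 18.5 FPKM, in the same order. MRPS18C, at 1.76, 1.99 and 1.69 FPKM, was the low member with no such sharing, though 40.2% of its exon bases overlapped ABRAXAS1 on the other strand.

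**Figure D3:**
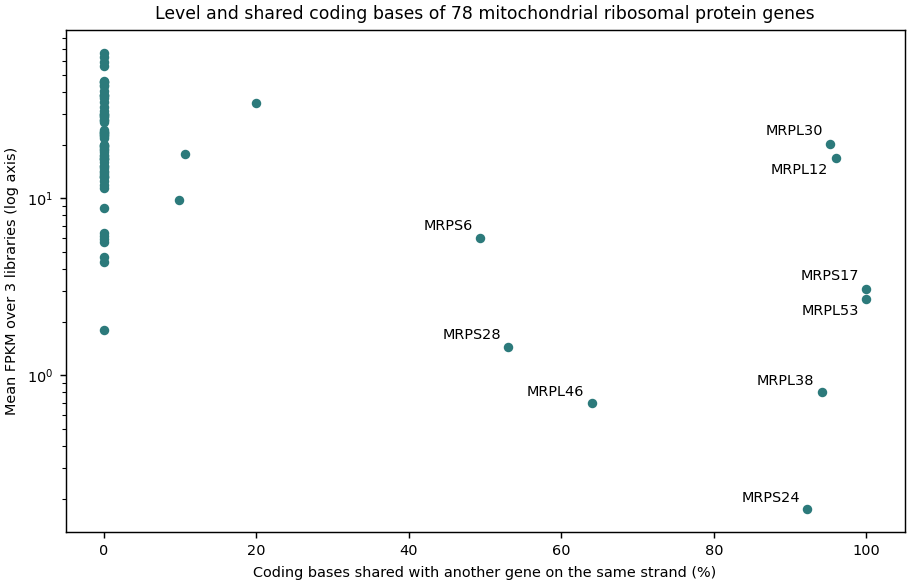
Mean FPKM over the 3 libraries (log axis) against the percentage of coding bases shared with another gene on the same strand, 1 point per gene for 78 genes. MRPS24, MRPL38, MRPL46 and MRPS28 lie at 53.0% to 94.1% shared and below 2 FPKM, while MRPL12 and MRPL30 lie at 96.0% and 95.3% with means of 17.0 and 20.4 FPKM.

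Setting the libraries labelled shUSP16 against the control addresses which members differ in cells with a hairpin to USP16. Members of both subunits were a little higher than shControl in both libraries labelled shUSP16, with median differences of 0.18 for shUSP16-1 and 0.24 for shUSP16-2 in log2(FPKM + 1). Of the 75 tested, 63 were higher in both and 6 lower in both, while 44.9% of all 13852 genes tested were higher in both and 32.4% lower in both. Among 11069 protein-coding genes these shares were 50.2% and 28.2%, beside 84.0% and 8% of the members. The median of all genes was 0.041 in shUSP16-1 and 0.043 in shUSP16-2. The background was higher among genes of higher level. At a mean of at least 5 FPKM, 58.2% of all genes and 60.1% of protein-coding genes were higher in both, beside 58 of 69 members (84.1%). Medians at that level were 0.10 and 0.12 for all genes and 0.18 and 0.24 for members, in shUSP16-1 and shUSP16-2. The libraries labelled shUSP16 share the 1 control, so being higher in both is not a count of separate findings.

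No member passed the test across all genes. limma called 0 of the 75 members, and it called 0% of all 13852 genes, with a lowest adjusted p among members of 0.272. At an unadjusted p under 0.05 stood 17 members (22.7%), all higher, beside 14.5% of all genes. This lead of the members depended on the setting. When libraries were scaled to equal sums of reads, limma put 7 of 75 members there beside 1954 of 13972 genes, a smaller share of members than of all genes. Without the variance trend these were 10 members beside 1770 of 13852 genes, so the shares were close. limma restricted to protein-coding genes, where 0.434% of genes were called, called MRPL1 alone among the members. limma voom on reads recovered from the FPKM called MRPL1 and MRPL20, both higher, where it called 2.51% of all genes, 1.47% as higher and 1.04% as lower. Taking each library's sum of reads as its total, voom called MRPL1 alone among the members, where 4.02% of all genes were called, 3.02% as lower.

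How the libraries were scaled moved these counts. The authors' values used totals that put shControl 1.08-fold above its own sum of reads. When the libraries were scaled to equal sums of reads instead, 45 of the 75 members were higher in both and 15 lower in both, with 31.1% and 45.6% of all genes. The median of the members then was 0.11 and that of all genes -0.049. With the authors' values the same medians were 0.21 and 0.042, so the median member stood above shControl and above the median gene with both scalings.

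Counting error was small beside these differences for many members. The ratio of reads to shControl had an exact binomial 95% interval above 1 in both libraries for 42 of 75 members. The same held for 27.9% of all genes and 33.4% of protein-coding genes. It was below 1 in both for 1 member, MRPL55, with 15.1% of all genes and 14.1% of protein-coding genes. With sums of reads as totals, 30 members lay above 1 in both, with 16.9% of all genes and 20.2% of protein-coding genes. Below 1 in both lay 7 members (9.33%), with 25.01% of all genes. Genes with more reads have narrower intervals, and these shares were not matched for reads. These intervals cover counting error only, not the spread between cultures.

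The large and small subunit gave similar values. In the large subunit 41 of 49 tested members were higher in both and 5 lower in both, with log2 medians of 0.19 in shUSP16-1 and 0.24 in shUSP16-2. In the small subunit 21 of 25 were higher in both and 1 lower in both, with medians of 0.17 and 0.24. Summed over all members of the large subunit, the level was 1242 FPKM in shUSP16-1 and 1273 in shUSP16-2, against 1070 in shControl; the small subunit came to 532 and 556 FPKM, against 462 in shControl. Proteins classed by name as having a bacterial counterpart were higher in both for 39 of 45 tested. Those classed as specific to mitochondria were for 23 of 29, and the limma medians were 0.21 and 0.20. None of these differences between classes was tested.

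**Figure D4:**
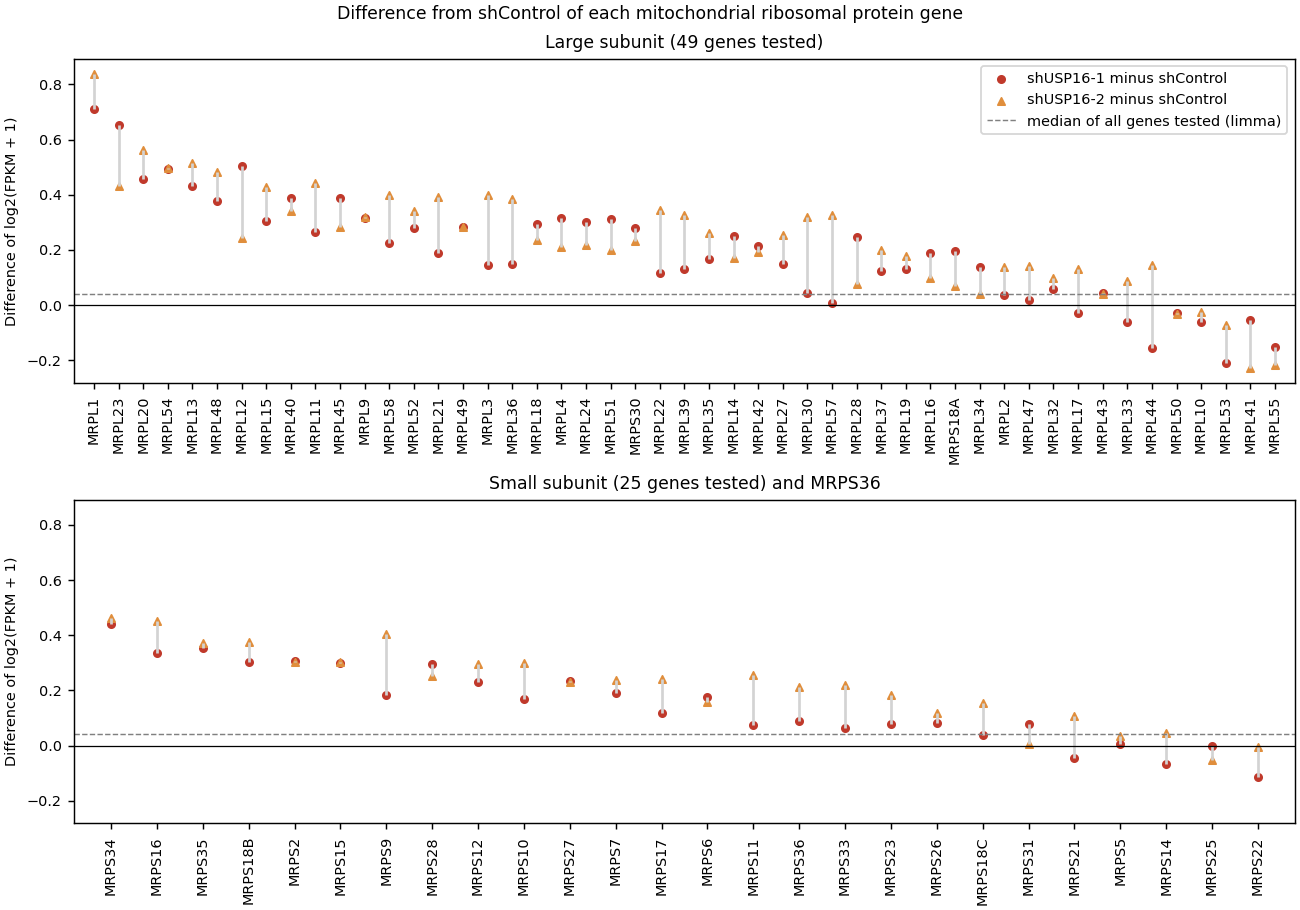
Difference of log2(FPKM + 1) from shControl in shUSP16-1 (circles) and shUSP16-2 (triangles) for the 75 tested genes, in order of the limma log2 difference; grey lines join the libraries, and the dashed line is the median of all genes tested, 0.042. MRPL1 stands highest in both libraries; MRPL53 is lowest in shUSP16-1, at -0.21, and MRPL41 in shUSP16-2, at -0.23.

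MRPL1, the protein of the flexible L1 stalk through which used tRNA leaves the ribosome, stood furthest from shControl. MRPL1 (ENSG00000169288, chromosome 4, 77862520 to 77952790, plus strand, GRCh38) had 16.9 FPKM in shUSP16-1 and 18.6 in shUSP16-2, and 9.96 in shControl, from 983, 1120 and 630 reads. The ratio to shControl was 1.70 (1.54 to 1.88) and 1.87 (1.69 to 2.06), and with sums of reads 1.59 and 1.72. Its log2 difference was 0.77 with an SE of 0.13 (limma adjusted p = 0.272 over all genes). The adjusted p of limma was 0.0390 among protein-coding genes, and that of limma voom 0.0216 with the authors' totals and 0.0243 with sums of reads. Both libraries labelled shUSP16 lay above the control by more than their own distance, though MRPL1 was chosen for its large difference in both.

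MRPL20, which binds the large ribosomal RNA early in assembly in bacteria, had 36.9 and 39.8 FPKM in the libraries labelled shUSP16 and 26.6 FPKM in shControl. MRPL20 (ENSG00000242485, chromosome 1, 1401908 to 1407313, minus strand) had a log2 difference of 0.51 with an SE of 0.12 (limma adjusted p = 0.280); limma voom gave an adjusted p of 0.0454 with the authors' totals and 0.0797 with sums of reads. MRPL23, at the tunnel through which the new protein leaves, had 16.7, 14.1 and 10.2 FPKM in shUSP16-1, shUSP16-2 and shControl. MRPL23 had a log2 difference of 0.54 with an SE of 0.15 (limma adjusted p = 0.290). The 2 genes differed in which library was further from the control: shUSP16-2 for MRPL20 and shUSP16-1 for MRPL23.

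MRPL54, specific to mitochondria, had 26.3 and 26.4 FPKM in the libraries labelled shUSP16 and 18.4 FPKM in shControl, a log2 difference of 0.49. MRPL13 had the most reads of all members in each library, 7554 and 8308 in the libraries labelled shUSP16 and 6064 in shControl, or 60.1, 63.7 and 44.3 FPKM. MRPL48, of the central protuberance, had 6.49 and 7.06 FPKM against 4.76 in shControl. In the small subunit MRPS34 stood furthest above, with the ratios 1.36 (1.28 to 1.45) in shUSP16-1 and 1.38 (1.30 to 1.47) in shUSP16-2. MRPS16, with a bacterial counterpart, had 29.1 and 31.6 against 22.8 FPKM in shControl, a log2 difference of 0.39, and MRPS35, specific to mitochondria, 32.3 and 32.7 against 25.1 FPKM, a difference of 0.36. In all of these the 2 libraries labelled shUSP16 lay closer to each other than to shControl. All but MRPS16 were chosen for a large difference in the same direction in both libraries, so this closeness follows in part from the choice. None passed limma over all genes (adjusted p from 0.280 to 0.299).

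The 6 tested members lower in both libraries were MRPL55, MRPL41, MRPL53, MRPL10, MRPL50 and MRPS22. MRPL55, the counterpart of a bacterial protein that bridges the subunits, had 14.4 and 13.7 FPKM in the libraries labelled shUSP16 and 16.1 in shControl. The ratio of MRPL55 to shControl was 0.894 (0.814 to 0.982) and 0.853 (0.776 to 0.937), and its log2 difference was -0.18 with an SE of 0.12 (limma adjusted p = 0.509). MRPL41 had 44.2 FPKM in shUSP16-1, 39.0 in shUSP16-2 and 45.9 in shControl, so that shUSP16-1 lay close to the control. MRPL53, at 2.42 and 2.76 against 2.95 FPKM, had intervals that hold 1 in both libraries. MRPL10, of the stalk base, was at a log2 difference of -0.042, MRPL50 at -0.029 and MRPS22 at -0.059, each within the SE of its estimate.

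For some members the 2 libraries labelled shUSP16 stood apart. MRPL57, specific to mitochondria, had 17.6 FPKM in shUSP16-1, 22.2 in shUSP16-2 and 17.5 in shControl, so shUSP16-1 lay close to the control and shUSP16-2 above both. MRPL44, related by sequence to a family of RNA-cutting enzymes, had 15.7, 19.6 and 17.6 FPKM in the same order, with the control between them. MRPL30 and MRPL3 were also higher in shUSP16-2, at 23.4 and 43.6 FPKM, than in shUSP16-1, at 19.2 and 36.4 FPKM, with 18.5 and 32.8 FPKM in shControl. MRPL12, whose bacterial counterpart forms the stalk that binds translation factors, was the reverse: 20.2 FPKM in shUSP16-1, 16.7 in shUSP16-2 and 14.0 in shControl. MRPL12 had a log2 difference of 0.37 (limma adjusted p = 0.359).

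Pseudogene copies bore on 2 members. Of 75 annotated pseudogenes of these genes, 27 had any read, 417 reads in shUSP16-1, 456 in shUSP16-2 and 585 in shControl, beside 131558, 141159 and 124361 reads of the members. MRPL45, which ties the ribosome to the inner membrane, had 1771, 1705 and 1462 reads, and its copy MRPL45P2 had 262, 273 and 369. The ratio of MRPL45 to shControl was 1.32 and 1.22 alone and 1.21 and 1.13 when summed with its copies, so its lead was smaller in the sum. How reads were assigned between MRPL45 and its copy was not tested. MRPS31, with 874, 859 and 899 reads, had 116, 117 and 160 in its copies, and its ratios of 1.06 and 1.00 came to 1.02 and 0.968 when summed. With equal sums of reads MRPS31 was at -0.059 on the log2 scale.

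Many of these genes start head to head with another gene, and the partners had smaller median differences. A protein-coding gene on the other strand started within 1000 bases for 28 of the 75 tested members (37.3%), while 18.4% of 11069 tested protein-coding genes had one. MRPL46 and MRPS11 start 34 bases apart and are both members. MRPS11, of the platform of the small subunit, had 4.21, 4.91 and 3.95 FPKM in shUSP16-1, shUSP16-2 and shControl. MRPS12, of the decoding centre, starts head to head with SARS2, the mitochondrial serine tRNA synthetase gene; MRPS12 had 13.7 and 14.4 FPKM in the libraries labelled shUSP16 and 11.5 in shControl, while SARS2 had 0.373 and 0.329 FPKM against 0.304 in shControl.

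Among 21 pairs in which both genes were tested and the partner was not itself a member, the member was higher in both libraries for 20 and the partner for 13. The partner was lower in both for 3. Of all tested protein-coding genes 50.2% were higher in both, and 60.1% of those with a mean of at least 5 FPKM. The partners' log2 medians were 0.065 in shUSP16-1 and 0.11 in shUSP16-2, and those of their members 0.19 and 0.25. TWNK, the mitochondrial DNA helicase gene that starts beside MRPL43, had 15.2, 15.6 and 9.64 FPKM in shUSP16-1, shUSP16-2 and shControl, while MRPL43 itself had 20.2, 20.1 and 19.5. NDUFS6, of respiratory complex I, had 78.8 and 77.2 against 58.7 FPKM, and its neighbour MRPL36 had 21.2 and 25.1 against 19.0 FPKM in shControl. TCP1, a chaperonin subunit gene beside MRPL18, had 42.4 and 49.4 against 33.4 FPKM. TWNK, NDUFS6 and TCP1 were the partners with the largest rises by the weaker library. The partners lower in both were ZNF189, PTCD2 and APBA3. ZNF189, beside MRPL50, had 11.0 and 10.8 FPKM in the libraries labelled shUSP16 and 13.1 in shControl. The difference between members and partners was not tested.

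Members with ETS or YY1 letters in the promoter did not stand clearly apart from those with neither. Tested members with YY1 letters had log2 medians of 0.21 in shUSP16-1 and 0.24 in shUSP16-2 (n = 17), those with ETS letters 0.16 and 0.21 (n = 28), and those with neither 0.16 and 0.23 (n = 28). All 7 tested members with both were higher in both libraries, with medians of 0.23 and 0.30, and MRPL20 and MRPL51 are among them; of the 128 tested protein-coding genes with both, 65.6% were. Across tested protein-coding genes 61.9% of those with YY1 letters were higher in both, 54.3% of those with ETS letters and 49.2% of those with neither.

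The other proteins of the mitochondrial ribosome, which have names outside the MRP series, were higher in both libraries for 5 of 5. Of all genes tested 44.9% were, and 58.2% of those with a mean of at least 5 FPKM. CHCHD1, of the small subunit, had 23.2 and 25.8 FPKM in the libraries labelled shUSP16 and 17.1 in shControl, AURKAIP1 68.5 and 62.5 against 50.9, and GADD45GIP1, of the large subunit, 56.1 and 57.1 against 47.1. DAP3, a GTP-binding protein of the small subunit, was nearer to the control, at 28.0 and 29.8 against 26.4 FPKM. With sums of reads, the ratios of DAP3 in shUSP16-1 and shUSP16-2 were 0.993 and 1.04. Those of PTCD3, also on this list, were 0.963 and 1.02. CHCHD1, AURKAIP1 and GADD45GIP1 stayed above 1 in both. limma called 0 of the 5, and 0 of the members of every list below, over all genes.

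Assembly factors of the mitochondrial ribosome were higher in both for 23 of 27 and lower in both for 2, beside 44.9% and 32.4% of all genes tested. MRM1, which methylates the large ribosomal RNA, had 9.08 and 8.60 FPKM in the libraries labelled shUSP16 and 5.31 in shControl, a log2 difference of 0.64 (limma adjusted p = 0.272). MPV17L2, which takes part in ribosome assembly, was at 0.48, MRM2, another methyltransferase of that RNA, at 0.43, and MALSU1, which keeps the subunits apart during assembly, at 0.39. Translation factors and their partners were higher in both for 11 of 16 and lower in both for 2. TUFM, the elongation factor that brings tRNA to the ribosome, had 129 and 137 FPKM against 92.0 in shControl, and LRPPRC, which stabilises mitochondrial messengers, 44.0 and 44.8 against 31.7. OXA1L, which inserts new proteins into the inner membrane, was at a log2 difference of 0.44. The list of mitochondrial tRNA synthetases also held QRSL1, GATB and GATC, which are subunits of an amidotransferase. It was higher in both for 18 of 19, led by EARS2 at 0.43 and YARS2 at 0.40. GATC was at -0.0088 in shUSP16-1 and 0.15 in shUSP16-2. The counts of these lists use the authors' totals. With sums of reads some of their genes fell below shControl, such as RPUSD4 at ratios of 0.989 and 0.942, while MRM1 stayed above it at 1.60 and 1.49.

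The RNAs made inside mitochondria did not share this direction. MT-RNR2, the large ribosomal RNA, had 9190 and 9067 FPKM in the libraries labelled shUSP16 and 11951 in shControl, and MT-RNR1, the small one, 1748 and 1785 against 2389. Their log2 differences were -0.39 and -0.44 (limma adjusted p = 0.272 for both). The ratios of MT-RNR2 were 0.769 and 0.759, and with sums of reads 0.720 and 0.698. The 13 messengers of the mitochondrial genome had a median log2 difference of -0.031. Of these 4 were higher in both and 8 lower in both, beside 44.9% and 32.4% of all genes tested. MT-ND3 was highest at 0.29 and MT-ND6 lowest at -0.093, and MT-ND4 was at -0.057. The sources used here do not give how RNA was selected before sequencing, and its part in the level of these RNAs was not tested.

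**Figure D5:**
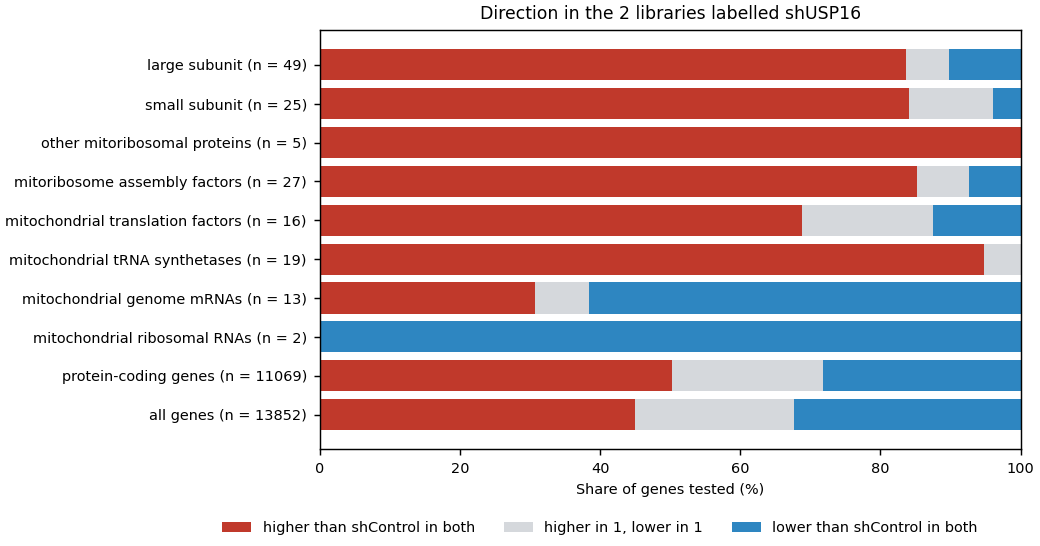
Share of tested genes (%) that were higher than shControl in both libraries labelled shUSP16, higher in 1 and lower in 1, or lower in both, for each subunit, 6 related lists, protein-coding genes and all genes. Both subunits stand at 83.7% and 84.0% higher in both, while both mitochondrial ribosomal RNAs are lower in both.

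Set beside them, the 81 tested genes with symbols of cytosolic ribosomal proteins were higher in both for 70. Of all genes tested 44.9% were, and 58.2% of those with a mean of at least 5 FPKM. The log2 medians of the 81, with the authors' totals, were 0.15 in shUSP16-1 and 0.21 in shUSP16-2. Their median level was 244 FPKM in shUSP16-1 and 247 in shUSP16-2, against 214 in shControl, far above that of the mitochondrial set. The difference between these sets was not tested.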

How the data were processed

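Expression was analysed in 3 HGC-27 libraries, grouped by their titles. The deposited table gives FPKM values per gene, per the file headers, beside each gene's length, position and biotype. The aligner, counter, strandedness and RNA selection stay unnamed, being not given in the sources used here. Builds in the submitters' processing notes are GRCm38 and mm10, but all 58735 gene IDs, starts and ends equal those of human GENCODE release 29 on GRCh38, and each deposited gene length equals the union of its exons. The product of FPKM and length was a whole multiple of 1 step per library for 100% of values above 0 (tolerance 0.01 reads), so reads were recovered; the authors' totals were 1.01, 0.994 and 1.08 times the sums of reads in shUSP16-1, shUSP16-2 and shControl. Reads of shUSP16-1 and shUSP16-2 differed beyond sampling noise (chi-square of 11.9 per degree of freedom, 20974 genes), and both were kept.

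limma 3.58.1 in R 4.3.3 compared log2(FPKM + 1) over 13852 genes whose mean reached 1 FPKM, with a variance trend and Benjamini-Hochberg adjustment at 0.05. Only shUSP16-1 and shUSP16-2 inform the spread (1 residual degree of freedom), and it is assumed that the control would vary as they do. limma also draws each gene's variance towards the trend over all genes tested, with 4.05 prior degrees of freedom. An exact permutation test cannot reach 0.05 with 3 libraries. Fold changes on this scale understate the change of low genes. limma and voom were tested on simulated data of this design. Intervals of ratios are exact binomial intervals. Exon sharing and head-to-head starts came from GENCODE 29, promoters from RefSeq on GRCh38.p14. The members, gene lists, motifs and tests were chosen with earlier results of these data known. Named members were the 5 highest and 3 lowest in each subunit, up to 8 per direction by the weaker library, the 5 with the largest gap between libraries, those below the filter, and those with near copies or shared coding bases; up to 4 genes per related list were chosen by the weaker library. Other genes were named after their values were seen. Tables and plots were made in Python 3.11.15 (pandas 2.3.3, matplotlib 3.10.9), and intervals with scipy 1.17.1.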

Additional observations from a re-analysis of the deposited data

How the results depend on the processing

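No paired analysis was possible because shControl has 1 library and its label carries no replicate number. Under a pseudocount of 0.1, no filter, a mean of at least 5 FPKM, median-ratio scaling, equal sums of reads, no variance trend or an adjusted p of 0.1, limma called 0 members, as with the main settings, while the count over all genes was 1688 with no filter, 13 with a mean of at least 5 FPKM and 0 with the others. It called 1 member and 48 genes among protein-coding genes. limma voom called 2 members and 348 genes with the authors' totals, and 1 and 557 with sums of reads, an alternative chosen after seeing the data. The cause was not tested. With equal sums of reads, 15 members were lower in both libraries, against 6, and the medians were 0.13 for the large subunit, 0.10 for the small and 0.11 for all members; voom with sums of reads gave 15, 0.14, 0.12 and 0.13. Both settings multiply all genes of a library by 1 factor. With 1 library labelled shUSP16 left out there was no test: the count of members higher ran from 64 to 68 and that lower from 7 to 11 (11 without shUSP16-2), and the medians ran from 0.19 to 0.24 for the large subunit, from 0.17 to 0.24 for the small and from 0.18 to 0.24 for all. Leaving out the 8 members that share most of their coding bases, also chosen after seeing the data, or naming subunits by the letter of the symbol, moved no median or count by more than the spread between libraries or 1.5 times. Of 365 values for 32 named members, 4 were newly called, all for MRPL1 and MRPL20. Another 1 moved by more than the spread between libraries when pseudogene reads were added (MRPL45, to 0.22). Scaling by sums of reads changed the sign of 8 values. MRPL34 came to -0.016 and -0.017, MRPS21 to -0.074 and -0.076, MRPS26 to -0.0055 and -0.0056, and MRPS31 to -0.059 and -0.064, with equal sums and with voom. The sign also changed for MRPL44, to 0.15 without shUSP16-1, and for MRPS21, to -0.046 without shUSP16-2. MRPS31 was at -0.0097 with the reads of its copies added. None of these was called under any setting. Depth limits MRPS24, MRPL38, MRPL46, MRPS28 and MRPL53, with 8 to 150 reads per library.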

Other observations

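Genes that run transcription inside mitochondria, and regulators of the nuclear genes for it, numbered 12 among the genes tested, of which 9 were above shControl in both shUSP16-1 and shUSP16-2 and 0 below it in both, beside 44.9% and 32.4% of all genes. TFB2M, needed to start mitochondrial transcription, had 17.9 and 19.4 FPKM in the libraries labelled shUSP16 and 11.5 in shControl. PPRC1, a coactivator related to PGC-1, had 38.1 and 42.3 against 28.3 FPKM in shControl, and TFAM, which packs mitochondrial DNA, 14.9 and 17.0 against 12.1. limma called 0 of the 12 over all genes, and 4 (33.3%) were at an unadjusted p under 0.05, beside 14.5% of all genes. MRPL42 had 2434 and 2483 reads in the libraries labelled shUSP16 and 2212 in shControl, more than most members. Its level was only 4.97, 4.89 and 4.14 FPKM, because its deposited length is 16393 bases. The longest annotated transcript of MRPL42 alone has 15582 bases.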
